A study of Mus musculus with 12 samples.

Results

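The genes described here are those of Hedgehog signalling from Sertoli cells to the interstitial progenitors of the mouse testis. They are *Dhh*, *Ptch1*, *Hhip*, *Smo*, *Gli1*, *Gli2*, *Gli3* and *Tcf21*. The 8 genes were chosen by name and were read in all 12 libraries from the 35976 gene symbols of the count files. All 8 passed the low-count filter in F1, in F3 and over the 12 libraries.

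In the embryonic testis, Sertoli cells inside the cords secrete desert hedgehog, the ligand encoded by *Dhh*. The ligand binds PTCH1 on cells of the interstitium, which releases SMO from inhibition and changes the activity of the GLI transcription factors. *Ptch1*, *Gli1* and *Hhip* are themselves transcribed in response to the signal, so that their RNA is commonly read as its output, whereas *Tcf21* encodes a transcription factor of the interstitial progenitors. In mice, loss of *Dhh* is known to impair the differentiation of fetal Leydig cells, the androgen-producing cells that arise from these progenitors.

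The libraries were made from E15.5 testes of outbred Swiss (RjOrl) mice, and each library was a pool from 3 embryos. F1 *thia* embryos came from mothers that received 6 mg/kg/day of the neonicotinoid insecticide thiacloprid (*thia*) in olive oil by gavage from E6.5 to E15.5, and F1 control embryos came from mothers given the oil alone. F3 *thia* and F3 control embryos descended from these lines through males mated with untreated, unrelated females, so that F3 embryos received no *thia* themselves. There were 3 libraries in each of the 4 groups, the litters behind each pool are not named, and the mice were not inbred.

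The total count was 25081647 to 56638738 in F1 control, 37867969 to 62786622 in F1 *thia*, 35216128 to 40614301 in F3 control and 38415415 to 68996146 in F3 *thia* libraries. Levels are given in CPM (counts scaled to a common library total, by TMM over the 12 libraries), and 1 CPM corresponded to 27.0 to 66.8 counts. Each of the 8 genes had at least 471 counts in every library. F3 *thia* replicate 2 stood apart, with a chi-square per degree of freedom of 90.7 and 101 against the other 2 pools of its group, where all other pairs within a group gave 17.3 to 42.2. The F3 fold changes, marker sums and ratios to markers are therefore also given without it where that changes a call or an overlap. All 12 Sertoli cell genes, 10 fetal Leydig cell genes and 10 germ cell genes checked as markers of a testis were above 0 in at least 1 library. The summed level of 8 blood genes was 5222 to 19019 CPM in F1 libraries and 45149 to 82351 CPM in F3 libraries. In bulk tissue, fewer cells of a type and less RNA per cell cannot be told apart.

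The stretches directly upstream of a RefSeq start of *Ptch1*, *Hhip* and *Tcf21* are shown. They were picked because *Ptch1* and *Hhip* had the largest F3 differences between *thia* and control among the 8 genes, both towards *thia*. *Tcf21* was the gene that lay on the other side. The sequences are the 120 bases before the start of the RefSeq transcript in GRCm38.p6 on the strand of the gene, at chr13:63565736-63565855 for *Ptch1*, chr8:80058009-80058128 for *Hhip* and chr10:22820144-22820263 for *Tcf21*, all on the minus strand. The *Ptch1* stretch lies inside the GENCODE M21 gene, which reaches to 63573598, so it precedes an internal start and not the outermost one. The *Tcf21* stretch also reaches into its GENCODE M21 gene, which on the minus strand starts at 22820174. Capitals mark CpG dinucleotides.
Ptch1: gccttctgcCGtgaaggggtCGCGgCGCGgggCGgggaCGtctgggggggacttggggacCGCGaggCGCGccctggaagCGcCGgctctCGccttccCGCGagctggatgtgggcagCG
Hhip: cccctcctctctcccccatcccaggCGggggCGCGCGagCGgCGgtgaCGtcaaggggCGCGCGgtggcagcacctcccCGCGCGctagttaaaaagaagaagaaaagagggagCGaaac
Tcf21: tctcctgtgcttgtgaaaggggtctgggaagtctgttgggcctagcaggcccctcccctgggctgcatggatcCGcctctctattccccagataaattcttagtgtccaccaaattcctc

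The 250 bases upstream of the RefSeq start of *Ptch1* held 41 CpG and those of *Hhip* held 28. Those of *Tcf21* held 5, against a median of 6 over all RefSeq promoter windows. The numbers for *Gli3*, *Gli2*, *Smo* and *Dhh* were 34, 22, 15 and 9. A window of 300 bases around the start was available for 7 of the 8 genes, all but *Gli1*. The GLI consensus GACCACCCA, or TGGGTGGTC on the other strand, was in 0 of these 7 windows and in 83 of 32851 windows overall (0.253%). With 1 mismatch allowed it was in 0 of 7 and in 2214 windows (6.74%). A window this short leaves out more distant sites, and for *Ptch1* it also leaves out the outermost GENCODE start.

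*Dhh*, the ligand, lies on chromosome 15 (98891152 to 98898540, minus strand, GENCODE M21 on mm10). Its level was 106, 104 and 106 CPM in the F1 control libraries and 97.3, 111 and 126 CPM in the F1 *thia* libraries. In F3 it was 56.4, 71.5 and 46.3 CPM in control and 87.6, 48.8 and 82.6 CPM in *thia* libraries. Every F3 library was below every F1 library, and within each generation *thia* and control overlapped. The lowest F3 *thia* library was replicate 2, and the other F3 *thia* libraries lay above every F3 control library. Of the exon bases of *Dhh* in GENCODE M21, 12.4% are shared with *Rhebl1* on the same strand and 25.2% with the antisense gene *Gm49442*. Its count is uncertain where the counting could split these reads. The other ligands were low in every library, with *Shh* at 1.01 to 2.63 CPM and *Ihh* at 0.909 to 1.81 CPM. Per kb of exon, *Dhh* was at 13.2 to 25.3 CPM per kb over the group means, *Shh* at 0.487 to 0.782 CPM per kb and *Ihh* at 0.376 to 0.453 CPM per kb.

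*Ptch1*, the receptor that holds the pathway off in the absence of ligand, lies on chromosome 13 (63508328 to 63573598, minus strand). It was at 129.8, 145 and 147 CPM in F1 control and 119, 129 and 138 CPM in F1 *thia* libraries. In F3 it was at 80.5, 99.5 and 91.1 CPM in control and 140.2, 119 and 157 CPM in *thia* libraries. The 3 F3 control libraries were the lowest of the 12, and the F3 *thia* libraries overlapped with both F1 groups.

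*Hhip*, which encodes a membrane protein that binds and sequesters the ligand, lies on chromosome 8 (79965851 to 80058006, minus strand). Its level was 23.1, 29.9 and 34.6 CPM in F1 control and 23.8, 35.8 and 33.0 CPM in F1 *thia* libraries. It was 17.5, 18.2 and 14.4 CPM in F3 control and 34.6, 20.8 and 24.1 CPM in F3 *thia* libraries. As with *Ptch1*, the F3 control libraries were the 3 lowest.

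*Smo*, the membrane protein that carries the signal inside the cell, lies on chromosome 6 (29735503 to 29761365, plus strand). Its level was 228, 209 and 184 CPM in F1 control, 226, 223 and 224 CPM in F1 *thia*, 317, 309 and 278 CPM in F3 control and 279, 352 and 296 CPM in F3 *thia* libraries. Between the generations this was the reverse of *Dhh*, with every F3 library above every F1 library, and there was overlap between *thia* and control in both generations.

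*Gli1*, the GLI factor that acts as an activator only, lies on chromosome 10 (127329882 to 127341974, minus strand). It was at 65.7, 73.5 and 70.8 CPM in F1 control, 59.2, 71.2 and 54.9 CPM in F1 *thia*, 41.3, 61.3 and 56.9 CPM in F3 control and 63.1, 68.7 and 73.3 CPM in F3 *thia* libraries. The 3 F3 *thia* libraries lay above the 3 F3 control libraries, but neighbouring groups in the order of means overlapped. An antisense gene, *Gm47200*, covers 5.31% of its exon bases.

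*Gli2*, the main activator at the start of a response, lies on chromosome 1 (118834132 to 119053619, minus strand). It was at 56.8, 52.1 and 43.2 CPM in F1 control, 51.3, 55.7 and 53.7 CPM in F1 *thia*, 32.8, 46.0 and 45.1 CPM in F3 control and 53.3, 52.9 and 64.1 CPM in F3 *thia* libraries. All F3 *thia* libraries lay above all F3 control libraries, and the F1 groups overlapped with each other.

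*Gli3*, whose processed form acts mainly as a repressor, lies on chromosome 13 (15463235 to 15730026, plus strand). It was at 34.6, 29.8 and 41.0 CPM in F1 control, 31.1, 33.9 and 31.8 CPM in F1 *thia*, 14.6, 21.1 and 20.4 CPM in F3 control and 22.3, 22.5 and 28.7 CPM in F3 *thia* libraries. F3 *thia* lay above F3 control and below both F1 groups, without overlap.

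*Tcf21*, the progenitor transcription factor, lies on chromosome 10 (22817281 to 22820174, minus strand). Its level was 321, 270.1 and 281 CPM in F1 control and 293, 279.6 and 306 CPM in F1 *thia* libraries. In F3 it was 405, 429 and 361 CPM in control and 315, 389 and 309.5 CPM in *thia* libraries. F3 control lay above both F1 groups, and F3 *thia* overlapped with F3 control. That overlap rested on F3 *thia* replicate 2, and the other F3 *thia* libraries lay below every F3 control library.

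**Figure D1:**
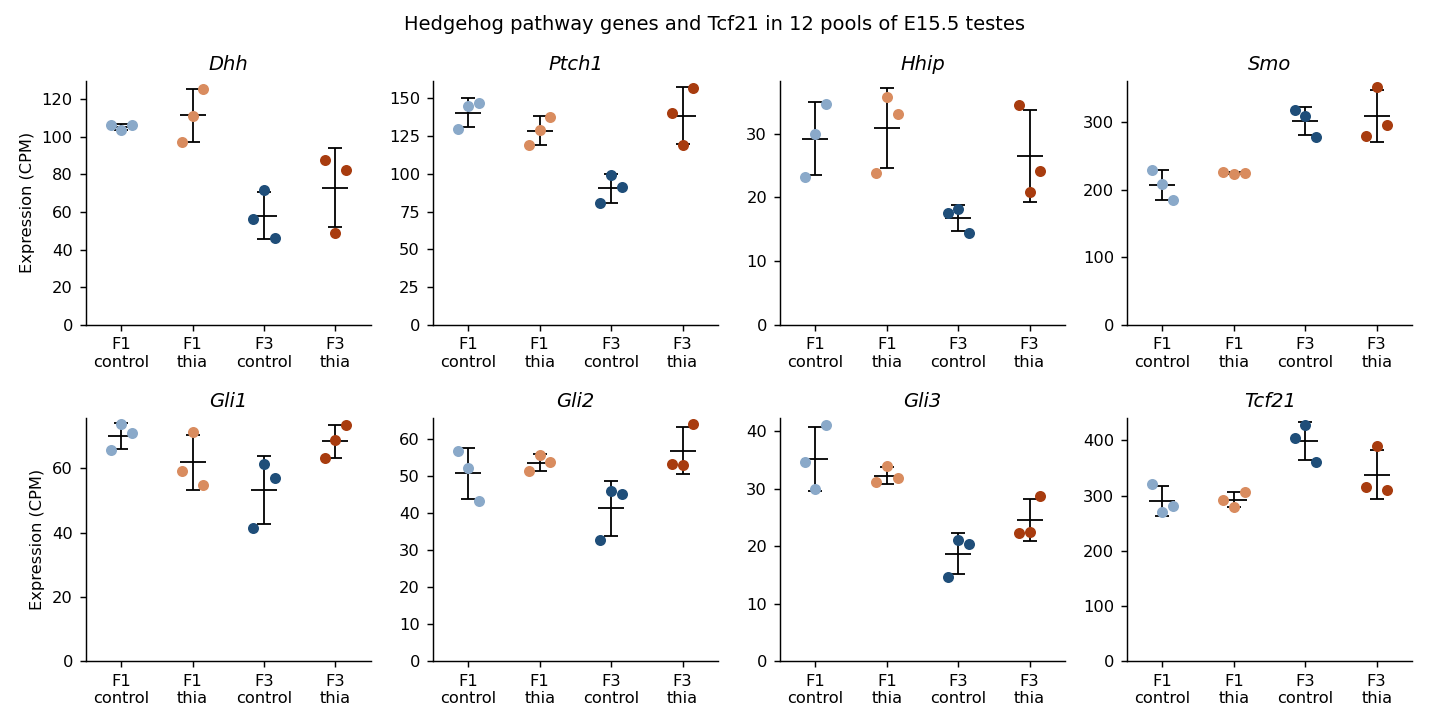
Level in CPM (vertical axes, from 0) of the 8 genes in each of the 12 pools, by group (horizontal axis). Points are pools, long horizontal lines are group means and error bars are the SD (n = 3). F3 control pools are the lowest of all for *Ptch1* (80.5 to 99.5 CPM) and *Hhip* (14.4 to 18.2 CPM), and F3 pools of both groups lie below F1 for *Dhh* and above F1 for *Smo*.

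Per kb of exon, *Tcf21* had the highest group means of the 8 genes, at 124 to 169.6 CPM per kb, followed by *Smo* at 36.8 to 54.9 CPM per kb. *Dhh* at 13.2 to 25.3 and *Gli1* at 10.6 to 14.02 CPM per kb came next. *Ptch1* was at 6.37 to 9.92 and *Gli2* at 6.01 to 8.26 CPM per kb. The least abundant were *Gli3* at 1.95 to 3.66 and *Hhip* at 1.84 to 3.40 CPM per kb.

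The first comparison was of directly exposed F1 testis with its control. From the ligand to the GLI factors, no gene of the pathway passed the test in F1 *thia* testis. *Dhh* was at 111 ± 14.2 CPM in *thia* and 105 ± 1.61 CPM in control, *Ptch1* at 129 ± 9.41 and 141 ± 9.46 CPM, and *Tcf21* at 293 ± 13.5 and 291 ± 26.7 CPM (SD, n = 3). The log2 fold changes of the 8 genes, *thia* over control, were -0.17 to 0.13 with a median of 0.06, beside a median of 0.01 over the 19137 genes tested. Of the 8 genes, 0 passed the FDR of 0.15 (edgeR quasi-likelihood test), where 2 genes in all (0.0105%) did, and 0 had an unadjusted p under 0.05, where 8.76% of all genes had one. DESeq2 also called 0 of the 8, beside 1.01% of all genes. In all 8 genes, *thia* and control libraries overlapped, whereas in 6.55% of all genes every *thia* library lay above control and in 8.45% every one lay below. The lowest adjusted p was 0.647, for *Gli1*, at 70.02 ± 3.97 CPM in control and 61.7 ± 8.47 CPM in *thia* (SD, n = 3; log2 fold change -0.17, standard error 0.109).

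The second comparison was of F3 *thia* testis with F3 control testis. *Ptch1* was at 90.4 ± 9.54 CPM in control and 139 ± 19.1 CPM in *thia*, and *Hhip* at 16.7 ± 2.04 and 26.5 ± 7.18 CPM (SD, n = 3). *Gli1*, *Gli2* and *Gli3* had means of 53.1 ± 10.5, 41.3 ± 7.39 and 18.7 ± 3.56 CPM in control and 68.4 ± 5.10, 56.8 ± 6.35 and 24.5 ± 3.64 CPM in *thia* (SD, n = 3). In these 5 genes every *thia* library lay above every control library. *Smo* differed little, at 302 ± 20.6 and 309 ± 38.5 CPM, and *Tcf21* lay on the other side, at 398 ± 34.1 CPM in control and 338 ± 44.4 CPM in *thia* (SD, n = 3).

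With edgeR, 0 of the 8 genes passed the FDR of 0.1 in F3, and 0 of the 18539 genes tested did (0%), the smallest adjusted p of any gene being 0.101. At an unadjusted p under 0.05 there were 4 of the 8, all towards *thia*. Such a p was found in 21.1% of all genes, 10.0% lower in *thia* and the rest higher. The 5 of 8 genes whose *thia* libraries all lay above control compare with 13.4% of all genes. The median log2 fold change of the 8 was 0.38, beside 0.00 over all genes. With the Wald test of DESeq2, the test used in the study, *Ptch1* (adjusted p = 0.000881), *Hhip* (adjusted p = 0.016) and *Gli2* (adjusted p = 0.0439) passed. These are 3 of the 8, where 9.17% of the 15218 genes given an adjusted p were called in that direction.

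For *Ptch1* the fitted log2 fold change was 0.62, a ratio of 1.53 (standard error 0.124, adjusted p = 0.105, edgeR). For *Hhip* it was 0.66 (standard error 0.192, adjusted p = 0.134). The 3 factors followed with 0.46 for *Gli2* (standard error 0.149, adjusted p = 0.156), 0.39 for *Gli3* (standard error 0.172, adjusted p = 0.252) and 0.36 for *Gli1* (standard error 0.149, adjusted p = 0.225). *Dhh* had 0.33, with the largest standard error of the 8 (0.238, adjusted p = 0.466). *Smo* had 0.03 (standard error 0.105, adjusted p = 0.884) and *Tcf21* -0.24 (standard error 0.112, adjusted p = 0.273).

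Without F3 *thia* replicate 2, the count of the 8 genes that passed went from 0 to 3 (edgeR), and the count over all genes to 1294. The 3 genes were *Ptch1* (log2 fold change 0.72, adjusted p = 0.0589), *Hhip* (0.81, adjusted p = 0.0719) and *Tcf21* (-0.35, adjusted p = 0.0974). For *Dhh* the log2 fold change was 0.55 without this library (adjusted p = 0.112), for *Gli2* 0.51 (adjusted p = 0.133), for *Gli3* 0.45 (adjusted p = 0.214), for *Gli1* 0.36 (adjusted p = 0.257) and for *Smo* -0.07 (adjusted p = 0.69). *Ptch1* also passed alone, at an adjusted p of 0.0972, 0.0696 and 0.0999, with upper quartile scaling, without a low-count filter and with at least 10 counts required in every library.

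**Figure D2:**
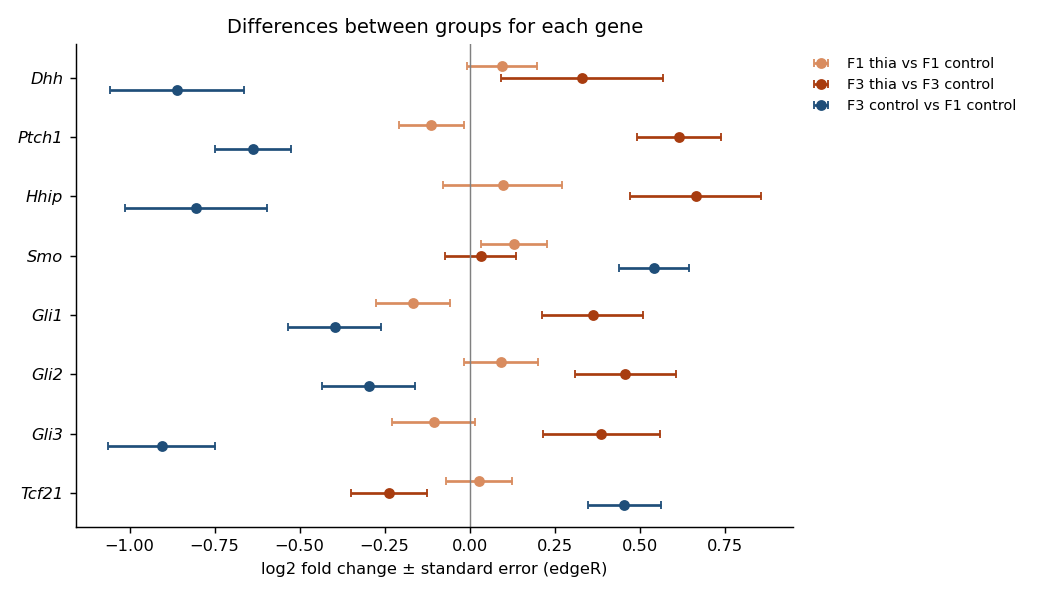
Log2 fold change from edgeR (horizontal axis) for each of the 8 genes (vertical axis), with bars of 1 standard error, for F1 *thia* against F1 control, F3 *thia* against F3 control and F3 control against F1 control. The F1 *thia* points lie between -0.17 and 0.13, and the F3 *thia* points reach 0.66 for *Hhip* and 0.62 for *Ptch1*. The F3 control libraries enter both the second and the third comparison.

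Fold changes in F3 moved with gene length over all genes. The median log2 fold change of *thia* over control in F3 was -0.12 for genes with under 2 kb of exon, -0.04 for 2 to 4 kb, 0.04 for 4 to 8 kb and 0.13 for over 8 kb. In F1 the medians ran the other way, from 0.08 for the shortest to -0.06 for the longest genes. Of the 8 genes, *Ptch1* has 14185 exon bases, *Gli3* 9589, *Hhip* 9076, *Gli2* 6869, *Smo* 5621, *Gli1* 4995, *Dhh* 4399 and *Tcf21* 2349, so that the gene on the other side in F3 is also the shortest. With the trend removed by loess, the F3 log2 fold change of *Ptch1* was 0.43 (adjusted p = 0.118) and that of *Hhip* 0.54 (adjusted p = 0.19). It was 0.38 for *Gli2*, 0.31 for *Gli1*, 0.29 for *Dhh*, 0.26 for *Gli3*, -0.03 for *Smo* and -0.21 for *Tcf21*. The median over genes whose exon length was 0.8 to 1.25 times that of *Ptch1* was 0.16, and for *Hhip* it was 0.10.

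**Figure D3:**
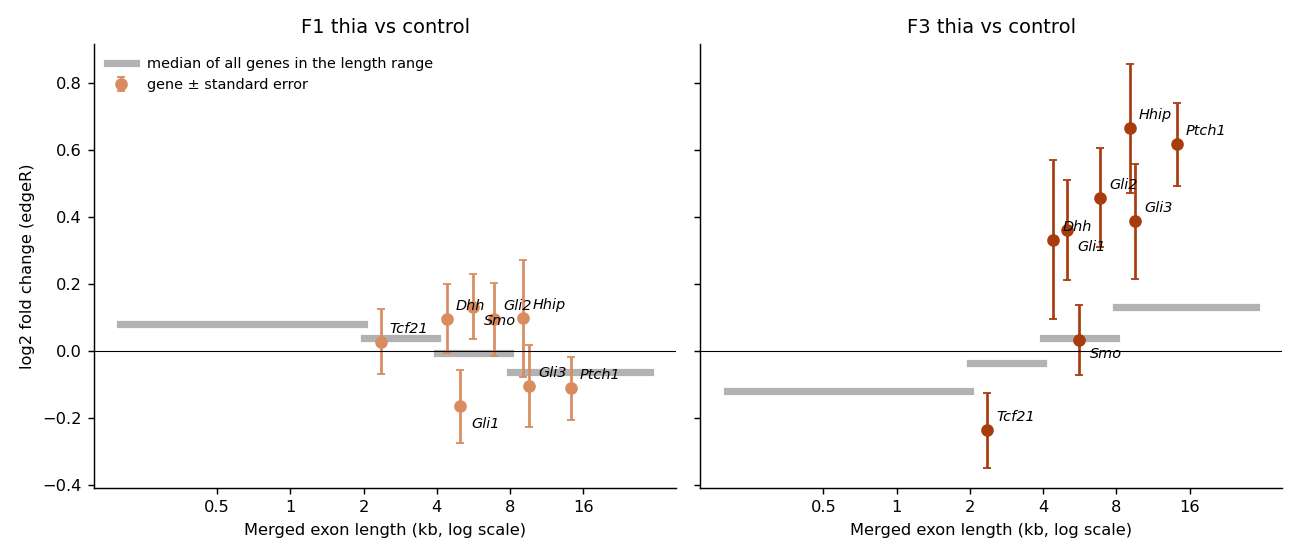
Log2 fold change of *thia* over control from edgeR (vertical axis) against merged exon length in kb (horizontal axis, log scale) in F1 (left) and F3 (right). Points are the 8 genes with bars of 1 standard error, and grey bars are medians of all genes tested in each length range. The grey bars rise with length in F3, from -0.12 to 0.13, and the points of *Ptch1* and *Hhip* lie above them.

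Cell type markers also moved with the F3 groups. The summed level of 20 interstitial cell genes was 2429 to 2710 CPM in F3 control and 2735 to 3354 CPM in F3 *thia* libraries, without overlap. Of these 20 genes, 17 had a positive and 3 a negative log2 fold change with a median of 0.30. Of the 20, 0 passed the FDR of 0.1 and 7 had an unadjusted p under 0.05, all towards *thia*. Such a p was found in 21.1% of all genes, 10.0% lower in *thia* and the rest higher. *Pdgfra*, the receptor of platelet-derived growth factor on interstitial mesenchyme, was at 332 ± 29.1 CPM in control and 457 ± 42.9 CPM in *thia* (SD, n = 3; log2 fold change 0.46, adjusted p = 0.105), and *Cspg4*, a pericyte gene, at 24.9 ± 4.35 and 43.3 ± 10.8 CPM (SD, n = 3; log2 fold change 0.80, adjusted p = 0.117). *Pdgfrb* had a log2 fold change of 0.34 (adjusted p = 0.152). The 10 fetal Leydig cell genes summed to 2946 to 4695 CPM in F3 control and 5182 to 9222 CPM in F3 *thia*, and all 10 had positive log2 fold changes (median 0.65, 0 passed). For 8 endothelial genes the sums were 178 to 201 CPM and 259.6 to 312 CPM, with 8 of 8 positive (median 0.46, 0 passed). The 9 adrenal genes summed to 48.8 to 69.2 CPM in F3 control and 73.0 to 130.1 CPM in F3 *thia*, with 4 of the 8 tested positive (median 0.12, 0 passed). These 4 sums stayed apart without F3 *thia* replicate 2. Of the 10 germ cell genes 9 had negative values (median -0.38, 0 passed), with overlapping sums of 644 to 984 CPM and 428 to 845 CPM. Sertoli, blood, smooth muscle and skeletal muscle sums overlapped with all libraries. Without F3 *thia* replicate 2 the Sertoli sum was higher in *thia*, at 1351 and 1361 CPM, and the blood sum was lower, at 45149 and 49632 CPM against 62009 to 66770 CPM in control, as were both muscle sums. In none of these lists was a gene at 0 in every library, and their part in the result was not tested.

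Relative to the summed interstitial genes, *Ptch1* was at 3.31 to 3.67% in F3 control and 3.54 to 5.12% in F3 *thia* libraries, and the groups overlapped. *Hhip*, *Smo*, *Gli1*, *Gli2* and *Gli3* likewise overlapped on this scale in F3. The overlap rested on F3 *thia* replicate 2 in all 6 genes. Without that library, a choice made after seeing the data, *Ptch1* was at 4.85 and 5.12%, *Hhip* at 0.745 and 1.26% against at most 0.722% in control, *Gli2* at 1.95 and 1.98% against at most 1.70%, and *Gli3* at 0.814 and 0.886% against at most 0.779%. *Gli1*, at 2.26 and 2.31% against at most 2.26%, lay barely above the highest control library, and *Smo*, at 9.13 and 10.2%, lay below the lowest control library at 10.4%. *Tcf21* was at 13.6 to 16.7% of the interstitial sum in F3 control and 9.56 to 11.6% in F3 *thia*, without overlap, a log2 difference of -0.49 (two-sided exact permutation test, p = 0.1, the smallest that 3 against 3 libraries can give, and 0.615 after adjustment over 16 such ratios). In F1 it was at 10.1 to 10.7% and 9.67 to 10.6%.

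*Dhh* comes from Sertoli cells, and its level was also set against the summed level of 12 Sertoli cell genes. That sum was 1587 to 1839 CPM in F1 control, 1701 to 2095 CPM in F1 *thia*, 852 to 1109 CPM in F3 control and 786 to 1361 CPM in F3 *thia* libraries. *Dhh* was 5.63 to 6.69% of it in F1 control, 5.31 to 6.05% in F1 *thia*, 5.43 to 6.45% in F3 control and 6.07 to 6.48% in F3 *thia* libraries, so that *thia* and control libraries overlapped within each generation. The log2 difference of *thia* from control was -0.10 in F1 (two-sided exact permutation test, p = 0.5) and 0.07 in F3 (p = 0.4, exact permutation test). The smallest p that 3 against 3 libraries can give is 0.1. With *Sox9* and *Amh* alone as the Sertoli level, the F3 difference was -0.45 (p = 0.2, exact permutation test). The share across generations also depends on the genes summed. *Amh* was at 689 ± 74.0 CPM in F1 control and 205 ± 51.9 CPM in F3 control, and *Sox9* at 44.5 ± 8.34 and 15.9 ± 3.06 CPM (SD, n = 3). Of the 12 genes, 10 were lower and 2 higher in F3 control.

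**Figure D4:**
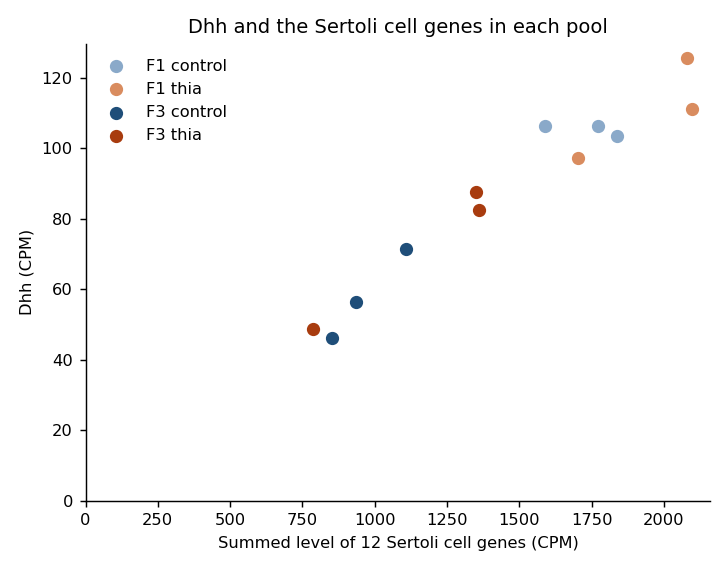
Level of *Dhh* in CPM (vertical axis) against the summed level of 12 Sertoli cell genes in CPM (horizontal axis), both axes from 0. Each point is 1 pool, coloured by group. The 6 F3 pools have sums of 786 to 1361 CPM and the 6 F1 pools sums of 1587 to 2095 CPM. *Dhh* is between 5.31 and 6.69% of the sum in all 12 pools, a share that depends on the 12 genes chosen.

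The lists of other pathway genes were counted in the same fits. In F1, 0 genes of any of the 4 lists passed the FDR of 0.15. The smallest p among 7 ligand and release genes was that of *Scube3*, which encodes a secreted factor that helps release the ligand (log2 fold change 0.22, adjusted p = 0.569, edgeR), followed by *Disp1* (0.12) and *Hhat* (0.11). Among the reception genes the smallest p belonged to the co-receptor *Boc* (log2 fold change 0.13, adjusted p = 0.695), followed by *Gas1* (0.09). Among 17 transduction genes they were *Gsk3b* (-0.21, adjusted p = 0.581), *Csnk1a1* (-0.19) and *Ift88* (-0.21), which encode kinases that act on GLI proteins and a transport protein of the cilium. Among 15 genes known as GLI targets in other tissues they were *Igfbp6* (0.57, adjusted p = 0.518), *Ccnd1* (0.26) and *Osr1* (0.26). Of the interstitial genes they were *Dlk1* (0.23, adjusted p = 0.599), *Cspg4* (0.23) and *Jag1* (-0.18).

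In F3, 0 genes of the 4 pathway lists passed the FDR of 0.1 with edgeR, where 0 of the 18539 genes tested did. Of the ligand and release genes, 6 of 7 had a positive log2 fold change (median 0.35). An unadjusted p under 0.05 was found in 21.1% of all genes, 10.0% lower in *thia* and the rest higher. The 3 ligand and release genes with such a p lay above control in every *thia* library. These were *Disp1*, the transporter that releases the ligand (0.35, adjusted p = 0.108, edgeR), *Scube3* (0.40, adjusted p = 0.146) and *Scube1* (0.47, adjusted p = 0.151). *Shh* (0.08, adjusted p = 0.897) and *Ihh* (-0.05, adjusted p = 0.938) overlapped between the groups. Of the 6 reception genes, 3 had every *thia* library above control, beside 13.4% of all genes. Among them were the co-receptors *Cdon* (0.51, adjusted p = 0.105) and *Boc* (0.39, adjusted p = 0.125). *Lrp2*, chosen after its values were seen, was the 1 reception gene with an unadjusted p under 0.05 in the other direction (-0.35), beside 10.0% of all genes.

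Among the 17 transduction genes 11 were positive and 6 negative in F3 (median 0.13). The 2 of 17 with an unadjusted p under 0.05 were *Sufu* and *Evc2*, both towards *thia*. Such a p was found in 21.1% of all genes, 10.0% lower in *thia* and the rest higher. *Sufu* encodes the inhibitor that binds GLI proteins (0.23, adjusted p = 0.171, edgeR), and *Evc2* a protein of the cilium base (0.32, adjusted p = 0.178). *Sufu* was at 43.0, 45.0 and 47.8 CPM in F3 control and 51.1, 52.1 and 56.4 CPM in F3 *thia* libraries, without overlap. Every *thia* library likewise lay above control in 13.4% of all genes. *Gsk3b* had 0.21 (adjusted p = 0.26). Of the 15 GLI targets of other tissues 11 were positive and 4 negative (median 0.08). Those with an unadjusted p under 0.05 were all towards *thia* and included *Sfrp1*, a secreted inhibitor of Wnt signalling (0.37, adjusted p = 0.105), the Notch ligand gene *Jag2* (0.36, adjusted p = 0.196) and *Osr1* (0.41). With DESeq2, *Disp1*, *Scube1*, *Scube3*, *Cdon*, *Boc* and *Sfrp1* had an adjusted p of 0.00335 to 0.0486 in F3. DESeq2 called 9.17% of 15218 genes as higher. The named genes were picked by smallest p, and DESeq2 counts over the whole lists are not given here.

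Whether the difference between *thia* and control itself differed between the generations was tested over the 12 libraries. *Ptch1* had a log2 fold change that was 0.75 higher in F3 than in F1 (standard error 0.157, adjusted p = 0.248, edgeR), the largest of the 8. *Hhip* had 0.59 (standard error 0.292, adjusted p = 0.382), *Gli1* 0.54 (standard error 0.193, adjusted p = 0.262), *Gli3* 0.51 (standard error 0.218, adjusted p = 0.325) and *Gli2* 0.38 (standard error 0.191, adjusted p = 0.386). For *Dhh* it was 0.25 (adjusted p = 0.719), for *Smo* -0.08 (adjusted p = 0.839) and for *Tcf21* -0.25 (adjusted p = 0.473). Of the 8 genes 0 passed the FDR of 0.1 (1 gene in all, 0.00510%), and 3 had an unadjusted p under 0.05 with a larger value in F3, beside 7.93% of all genes. DESeq2 called *Ptch1* alone among the 8 (adjusted p = 0.01), where 4.74% of 13461 genes were called. The medians over all genes moved with exon length here too, from -0.18 for under 2 kb to 0.22 for over 8 kb, and with that trend removed the value of *Ptch1* was 0.48 (adjusted p = 0.354).

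The 2 control groups differed in 7 of the 8 genes. In F3 control testis *Dhh* was at 58.1 ± 12.7 CPM against 105 ± 1.61 CPM in F1 control testis, *Ptch1* at 90.4 ± 9.54 against 141 ± 9.46 CPM, *Hhip* at 16.7 ± 2.04 against 29.2 ± 5.76 CPM and *Gli3* at 18.7 ± 3.56 against 35.1 ± 5.58 CPM (SD, n = 3). *Smo* and *Tcf21* were higher in F3 control testis, at 302 ± 20.6 against 207 ± 22.3 CPM and at 398 ± 34.1 against 291 ± 26.7 CPM (SD, n = 3). Of the 8 genes 5 fell and 2 rose at an FDR of 0.1, where 42.3% of the 19626 genes tested were called, 22.4% lower and 19.9% higher. The groups did not overlap in these 7 genes, nor in 48.8% of all genes.

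The log2 fold change of F3 control over F1 control was -0.91 for *Gli3* (standard error 0.156, adjusted p = 0.00122, edgeR) and -0.86 for *Dhh* (standard error 0.198, adjusted p = 0.00622). *Hhip* followed with -0.81 (standard error 0.209, adjusted p = 0.0115), *Ptch1* with -0.64 (standard error 0.112, adjusted p = 0.00136) and *Gli1* with -0.40 (standard error 0.137, adjusted p = 0.0417). For *Smo* it was 0.54 (standard error 0.104, adjusted p = 0.00219) and for *Tcf21* 0.46 (standard error 0.107, adjusted p = 0.00695). *Gli2* had -0.30 (standard error 0.136, adjusted p = 0.111), and its groups overlapped. The call of *Gli1* was lost without F1 control replicate 2 (adjusted p = 0.118) and without F3 control replicate 1 (adjusted p = 0.153), where its log2 fold change was -0.24. The generation cannot be told apart from any difference in handling or sequencing between the 2 sets of libraries.

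Gene length and cell markers moved with this comparison as well. The median log2 fold change over all genes was 0.31 for under 2 kb of exon and -0.28 for over 8 kb. With the length trend removed the same 7 genes passed, with -0.30 for *Ptch1* (adjusted p = 0.0364) and 0.26 for *Tcf21* (adjusted p = 0.0779), and *Dhh* was at -0.85 (adjusted p = 0.00892). In the main test, 22.4% of all genes passed as lower and 19.9% as higher in F3 control. Of 12 Sertoli cell genes 8 passed as lower and 1 as higher in F3 control (median -0.97). Of 10 germ cell genes 7 passed as lower (median -1.17), of 8 endothelial genes 7 as lower (median -0.73) and of 10 fetal Leydig cell genes 3 as lower (median -0.36), while of 6 smooth muscle genes 5 passed as higher and 1 as lower (median 0.58). All 8 blood genes had positive values (median 2.52, 6 passed), and with these genes left out of the library totals the values of the 8 genes moved by less than 0.01 in log2. Leaving blood genes out changes only the scaling of the libraries, so it cannot show what more blood cells in a pool would do. The part of the marker genes in the result was not tested.

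In the pathway lists, *Scube1* fell between the controls (-0.86, adjusted p = 0.000716, edgeR) and was the 1 of 7 ligand and release genes that passed. Of the reception genes *Gas1* (0.61, adjusted p = 0.00877) and *Cdon* (0.30, adjusted p = 0.0702), which encode proteins that assist binding of the ligand, rose. Among the transduction genes 6 of 17 passed, all lower, beside the 42.3% of all genes called, with *Gsk3b* at -0.52 (adjusted p = 0.00175), while *Sufu* was at 0.00 (adjusted p = 0.978). Of the 15 GLI targets 4 passed as higher and 5 as lower (median -0.16). *Igfbp6* (1.46, adjusted p = 0.000619) and *Osr1* (0.65, adjusted p = 0.00674) were among those that rose, and *Sfrp1* (-0.38, adjusted p = 0.00496) and *Jag2* (-0.47, adjusted p = 0.025) among those that fell. Of 20 interstitial genes 8 passed as lower and 2 as higher, with 15 negative and 5 positive values. Over all genes, 22.4% passed as lower and 19.9% as higher.

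The genes with the pattern most like that of a given gene over the 12 libraries were found by the root mean square difference of centred log2 CPM among 19625 other genes. For *Ptch1* they were *Nfe2l1* (0.0636), *Aff3* (0.0674) and *Prss35* (0.077). For *Dhh* they were *Exoc3l2* (0.0727), *Serpine2* (0.0897) and *Reep2* (0.116), for *Gli1* they were *Slc4a3* (0.0774), *Med12* (0.0835) and *Plekhg2* (0.084), and for *Tcf21* they were *H2afz* (0.0497), *Gmnn* (0.0625) and *Hmgn2* (0.0675). None of the 8 genes was among the 3 nearest to another. The closest pair of the 8 by distance was *Smo* and *Tcf21* (0.149), followed by *Gli1* and *Gli2* (0.165) and *Ptch1* and *Gli1* (0.18). Many other genes were nearer still. Among the 19625 genes, *Tcf21* had rank 427 by nearness to *Smo*, *Gli2* rank 371 to *Gli1* and *Gli1* rank 523 to *Ptch1*. *Dhh* was nearer to *Hhip* (0.264) than to *Ptch1* (0.331) and farthest from *Smo* (0.706). These distances rest on differences between the generations as well as on those between *thia* and control.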

How the data were processed

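The data are RNA counts of 12 pools of embryonic testes, with 3 pools in each group. The authors made strand-specific paired-end libraries and aligned the reads to mm10 with HISAT2 2.1.0. Their featureCounts output was used here as deposited, as raw counts per gene that had not been scaled. Whether reads or pairs were counted, and how reads shared by several genes were treated, is not given in the sources used here. The files held 0 rows without a gene name.

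The 8 genes, the other gene lists and the tests were chosen with earlier results of these data known. Named are the 8 genes, *Shh*, *Ihh* and *Sufu*, up to 3 genes by smallest p, in F1 and in F3, from each of the 4 pathway lists and the interstitial list, and the 3 genes nearest to *Dhh*, *Ptch1*, *Gli1* and *Tcf21*. Some genes of these lists are not reported here. Groups were taken from the labels. The study describes males of different litters and calls the pools biological replicates; which litters entered which pool is not given in the sources used here, and p-values measure the spread between pools.

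Tests were run in R 4.3.3 with edgeR 4.0.16 and limma 3.58.1, and DESeq2 1.42.0 served as an alternative. The filterByExpr function removed genes of low count (minimum 10), TMM gave the scaling, and a prior count of 2 was added for log2 CPM. Within a generation, *thia* was compared with control by the edgeR quasi-likelihood test, and p-values were adjusted after Benjamini and Hochberg over all genes tested. The FDR limits were those of the study, 0.15 for F1 and 0.1 for F3. The study applied them to DESeq2 and not to edgeR. The difference between the generations and the comparison of the controls used 1 fit of the 12 libraries and an FDR of 0.1. Standard errors were derived from the F statistic. CPM values come from all 12 libraries scaled together, and fold changes within a generation from its own 6. Ratios to marker sums were tested by two-sided exact permutation. The pipeline was tested on simulated data. Exon lengths came from GENCODE M21 for 90.6 to 92.4% of the genes tested and for all genes of the lists, and upstream sequences from RefSeq on GRCm38.p6. The study counted against the refGene annotation of mm10 from UCSC, so that GENCODE lengths and overlaps need not be those counted. Figures were drawn with matplotlib 3.10.9 under Python 3.11.15. The alternatives were DESeq2, DESeq2 size factors, upper quartile scaling, other low-count filters, an FDR of 0.05, a replicate block, a single fit of all libraries, *Sox9* and *Amh* alone for Sertoli cells, and leaving out each library. Removal of the trend with length or GC content, blood genes left out of the totals, an FDR of 0.15 in F3, and 2 libraries left out together were added after the data were seen.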

Additional observations from a re-analysis of the deposited data

How the results depend on the processing

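In F1, 0 of the 8 genes passed under each alternative run. In F3 the count was 3 with DESeq2, 1 with upper quartile scaling, 1 without a low-count filter, 1 with at least 10 counts in every library, 3 with all 12 libraries in 1 fit, 2 at an FDR of 0.15, 1 with F3 control replicate 3 and F3 *thia* replicate 2 both left out, and 0 to 3 with each library left out in turn, 3 being without F3 *thia* replicate 2. The 3 genes were *Ptch1*, *Hhip* and *Gli2* with DESeq2 and with all 12 libraries in 1 fit. Over all genes these settings called 2262, 520, 569, 333, 1936, 1826, 207 and, without F3 *thia* replicate 2, 1294 genes. The difference between the generations gave 1 of the 8 with DESeq2, *Ptch1*, and 0 otherwise. Between the controls it was 6 to 8 with libraries left out and 7 or 8 otherwise. *Gli2* also passed there without the filter, with the GC trend removed, and without F1 control replicate 3 or F3 control replicate 2. The cause of these changes was not tested. *Dhh* relative to the Sertoli genes ran from -0.16 to -0.03 in F1 and from 0.00 to 0.13 in F3 with 1 library left out, and was -0.45 in F3 against *Sox9* and *Amh* alone.

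Log2 fold changes near 0 turned in sign. With 1 library left out, the F1 range was -0.048 to 0.25 for *Hhip*, -0.024 to 0.10 for *Tcf21*, -0.010 to 0.18 for *Gli2*, -0.21 to 0.014 for *Gli3* and -0.0016 to 0.18 for *Dhh*. *Smo* ran from -0.071 to 0.092 in F3 and from -0.19 to 0.014 for the difference between the generations. With the length trend removed *Tcf21* was at -0.048 in F1 and *Smo* at -0.033 in F3. With the GC trend removed *Dhh* was at -0.0086, *Gli2* at -0.028 and *Tcf21* at -0.017 in F1, and *Smo* at -0.083 in F3. With both libraries left out *Smo* was at -0.12.

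The replicate numbers did not pair the libraries. Deviations of same-numbered *thia* and control libraries correlated at -0.04, -0.04 and 0.03 in F1 and at 0.20, -0.37 and -0.24 in F3. With the replicate number as a block the counts were 0, 0, 0 and 7. The smallest adjusted p over all genes in F3 was 0.101, against a limit of 0.1.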
